A study of Homo sapiens with 4 samples.

Results

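The genes described here are those that make cholesterol and fatty acids, together with the proteins that sense, move or activate these lipids. They were chosen by name, as 39 genes in 6 roles, and looked up among the protein-coding transcripts of 1 deposited table. A protein-coding transcript was listed for 37 of the 39, and these 37 genes held 98 of the 26348 protein-coding transcripts in a table of 43596 transcripts. TM7SF2, a sterol reductase, and ACSL1, a long-chain acyl-CoA synthetase, had no protein-coding transcript listed, and their levels were not analysed here.

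RNA was sequenced from MDA-MB-231 cells, a widely used human line of triple-negative breast cancer, after 24 h with DMSO, the solvent control, or with 10 µM KH-3, a small molecule that blocks the binding of the RNA-binding protein HuR to its target mRNAs. There were 2 libraries in each group, all of the same line, so the results describe 1 cell line. The value used was the mean normalised read count of each transcript, which the authors averaged over libraries. The study's methods also name a group at a lower dose of KH-3, and whether it enters that mean is not stated. The table gives no value for a single library, so no level of DMSO and KH-3 cells could be set apart, no error is known for any value, the depth of each library is unknown, and no difference between the treatments is given.

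Cholesterol is built from acetyl-CoA through mevalonate, then through squalene and lanosterol. Fatty acids are built from the same acetyl-CoA by carboxylation, chain building, elongation and desaturation. Both branches are controlled by the SREBP transcription factors, which INSIG and SCAP hold in the endoplasmic reticulum while sterols are plentiful and which bind sterol regulatory elements in promoters, usually beside the factors NF-Y and SP1. Dividing cells use both products to build membranes.

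The level of a gene was its mean normalised read count per kb of transcript, summed over its protein-coding transcripts, and its place was its percentile among all 12120 genes with such a transcript. By this measure the lipid synthesis genes lay high in the cells. Their median level was 411 per kb, against 117 per kb over all genes, and their median percentile was 81.2. In the top 10% of all genes lay 13 of the 37 (35.1%, against 10% of all genes by construction), and 31 (83.8%) lay at or above the middle gene. The levels ran from 5.14 per kb for MVK to 4050 per kb for SCD, a span of 787-fold. The low end rests on 1 MVK transcript with a mean of 13.3 reads, near the lowest mean listed for any transcript, 7.34. These figures describe the genes and carry no test, since the genes were chosen by name with earlier results of these data known.

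**Figure D1:**
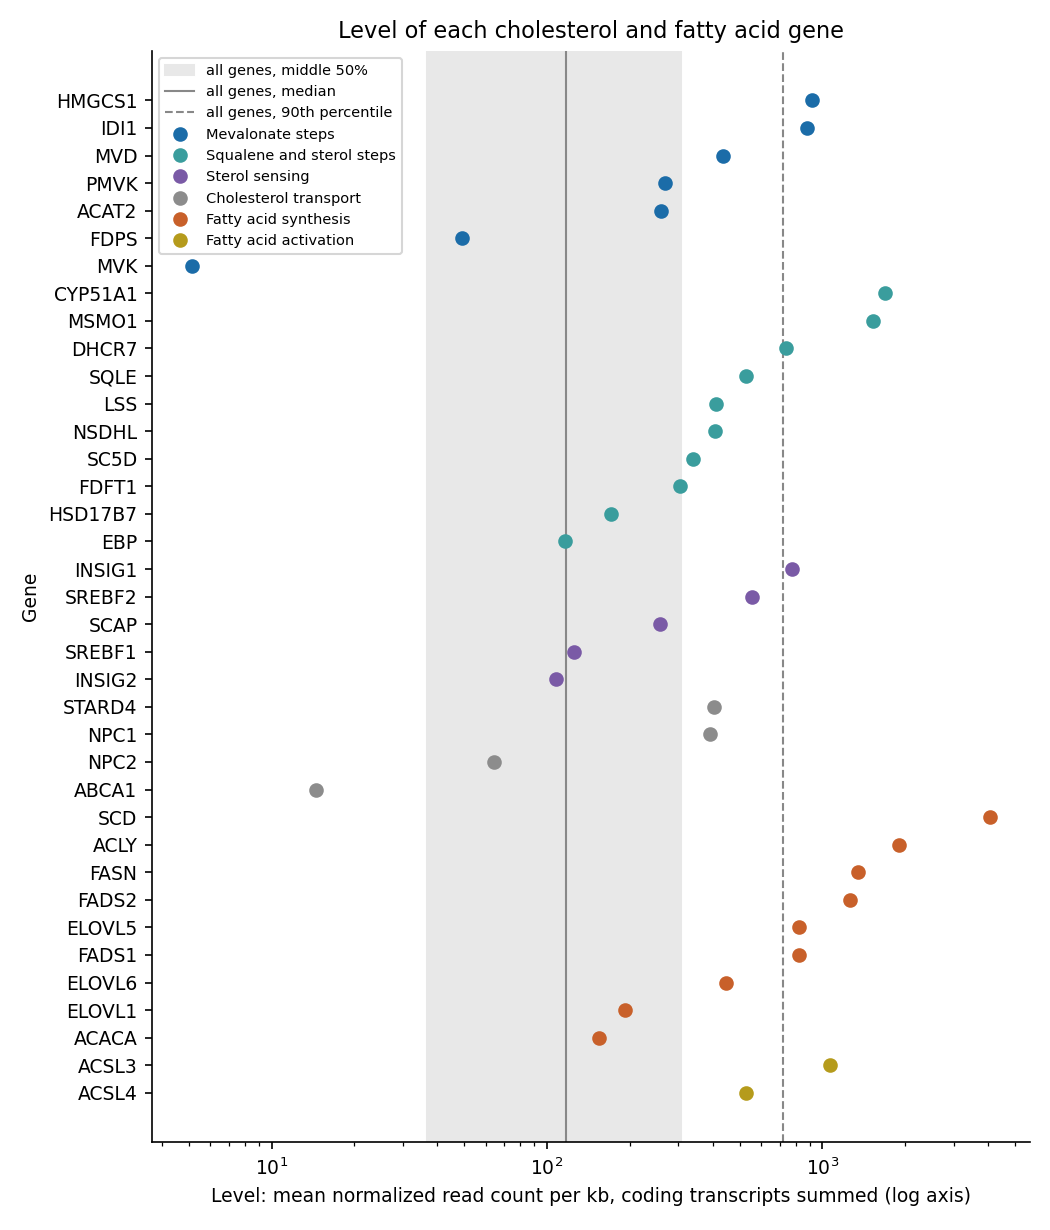
Level of each of the 37 genes, as mean normalised read count per kb on a log axis, grouped by role. Points are single means over libraries with no error bar. SCD, at 4050 per kb, stands highest and MVK, at 5.14 per kb from 1 transcript with a mean of 13.3 reads, lowest.

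Genes of fatty acid synthesis stood highest of the 6 roles, with a median percentile of 91.6 and 6 of 9 genes in the top 10%. The role kept the highest median under every setting used. With all transcript types its median was 88.4, against 87.9 for the activation role, and 4 of 9 genes lay in the top 10%. That count was also 4 over transcripts with a mean of at least 50. SCD, which places the first double bond in saturated fatty acids, had 4050 reads per kb and ranked 108 among all genes. ACLY, which splits citrate into cytosolic acetyl-CoA, had 1892 per kb, and FASN, the synthase that builds palmitate, had 1345 per kb. ACACA, the carboxylase that makes malonyl-CoA for that synthase, was the lowest of the role at 155 per kb (percentile 57.5). Per kb, ACLY therefore stood 12.2-fold and FASN 8.69-fold above the carboxylase that works between them. Without division by length these ratios were 5.43 and 7.46, and the percentile of ACACA ran from 49.7 to 86.1 over the alternatives. The other acetyl-CoA carboxylase, ACACB, was lower still, with a level of 25.3 per kb.

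The desaturases and elongases followed. FADS2 and FADS1, which introduce further double bonds into polyunsaturated fatty acids, had 1263 and 822 per kb, a ratio of 1.54. That ratio was 1.06 without division by length, and with no error for either value the difference of the pair was not tested. Among the elongases, ELOVL5, which extends polyunsaturated chains, had 822 per kb. ELOVL6, which extends palmitate, had 446 per kb, and ELOVL1, which makes very long chains, had 191 per kb. The order of these elongases held under every setting used, with ELOVL5 between 1.28-fold and 1.90-fold above ELOVL6. No setting used the lengths of another annotation. ELOVL6-002, which held 89.2% of the coding level of ELOVL6, was taken as 3090 bases long. GENCODE release 44, a later annotation, gives it 6570 bases, and the order with that length was not tested. Acyl-CoA synthetases attach fatty acids to CoA before use, and ACSL3 had 1067 per kb and ACSL4, which prefers arachidonate, 529 per kb.

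The squalene and sterol steps had a median percentile of 81.1, with 3 of the 10 listed genes in the top 10%. CYP51A1, the lanosterol demethylase, led at 1680 per kb and MSMO1, a methylsterol oxidase that acts after it, followed at 1525 per kb. DHCR7, the last reductase on one route to cholesterol, had 738 per kb. SQLE, the squalene epoxidase, had 528 per kb, LSS, which closes the rings to give lanosterol, 411 per kb, and FDFT1, which makes squalene, 303 per kb. The level of FDFT1 rests on FDFT1-012, taken as 741 bases long, while GENCODE release 44 gives this transcript 2233 bases. Such differences were not limited to FDFT1. Leading transcripts of other roles also differed, such as ACAT2-001 (3180 against 1520 bases), HMGCS1-001 (3506 against 5350) and ELOVL6-002 (3090 against 6570). Levels with the lengths of release 44 were not computed. The percentile of FDFT1 ran from 40.5 to 79.9 over the ways of computing the level. NSDHL, a sterol dehydrogenase, stood at 407 per kb and SC5D, a sterol desaturase, at 338 per kb. HSD17B7, a keto reductase, had 171 per kb and EBP, a sterol isomerase, 117 per kb, close to the middle gene of the table (percentile 49.9). CYP51A1 thus lay 14.4-fold above EBP per kb, although the ratio ran from 3.80 with non-coding transcripts added to 46.0 without division by length.

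Among the mevalonate steps the levels spanned 177-fold, with a median percentile of 72.1. The span was 60.6-fold with all transcript types, and 3.51-fold over transcripts with a mean of at least 50, which leaves out FDPS and MVK. HMGCS1, which makes HMG-CoA, had 913 per kb and IDI1, the isomerase of isopentenyl diphosphate, 878 per kb, and both were in the top 10%. MVD, which decarboxylates the diphosphate of mevalonate, had 434 per kb. PMVK, the kinase before it, had 269 per kb, and ACAT2, the thiolase that opens the pathway, 260 per kb. FDPS, which makes farnesyl diphosphate, stood at 49.1 per kb (percentile 30.3). MVK, the kinase of mevalonate itself, stood at 5.14 per kb (percentile 4.55). Transcripts of other types, which this level leaves out, held most of the estimated reads of FDPS and MVK.

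The sensing genes differed within each related pair. INSIG1 had 778 per kb and INSIG2, the other retention protein, 108 per kb, a ratio of 7.20 that ranged from 5.28 to 7.45 over the other ways of computing it. SREBF2, which encodes the SREBP mainly tied to cholesterol synthesis, had 556 per kb. SREBF1, which encodes the SREBP mainly tied to fatty acid synthesis, had 126 per kb, so SREBF2 stood 4.43-fold higher (2.97 to 7.23 over the alternatives). SCAP, the escort of both SREBPs, had 258 per kb.

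Cholesterol transport was the lowest role, with a median percentile of 57.9 and 0 of 4 genes in the top 10%. With all transcript types counted its median was 81.8, with 1 of 4 genes in the top 10%, and the sensing role was then the lowest at 69.4. STARD4, a carrier of cholesterol between membranes, had 405 per kb and NPC1, which exports cholesterol from lysosomes, 391 per kb. NPC2, which hands cholesterol to NPC1, had 64.1 per kb. ABCA1, which passes cholesterol out of the cell, had 14.5 per kb (percentile 13.0) from a single transcript.

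**Figure D2:**
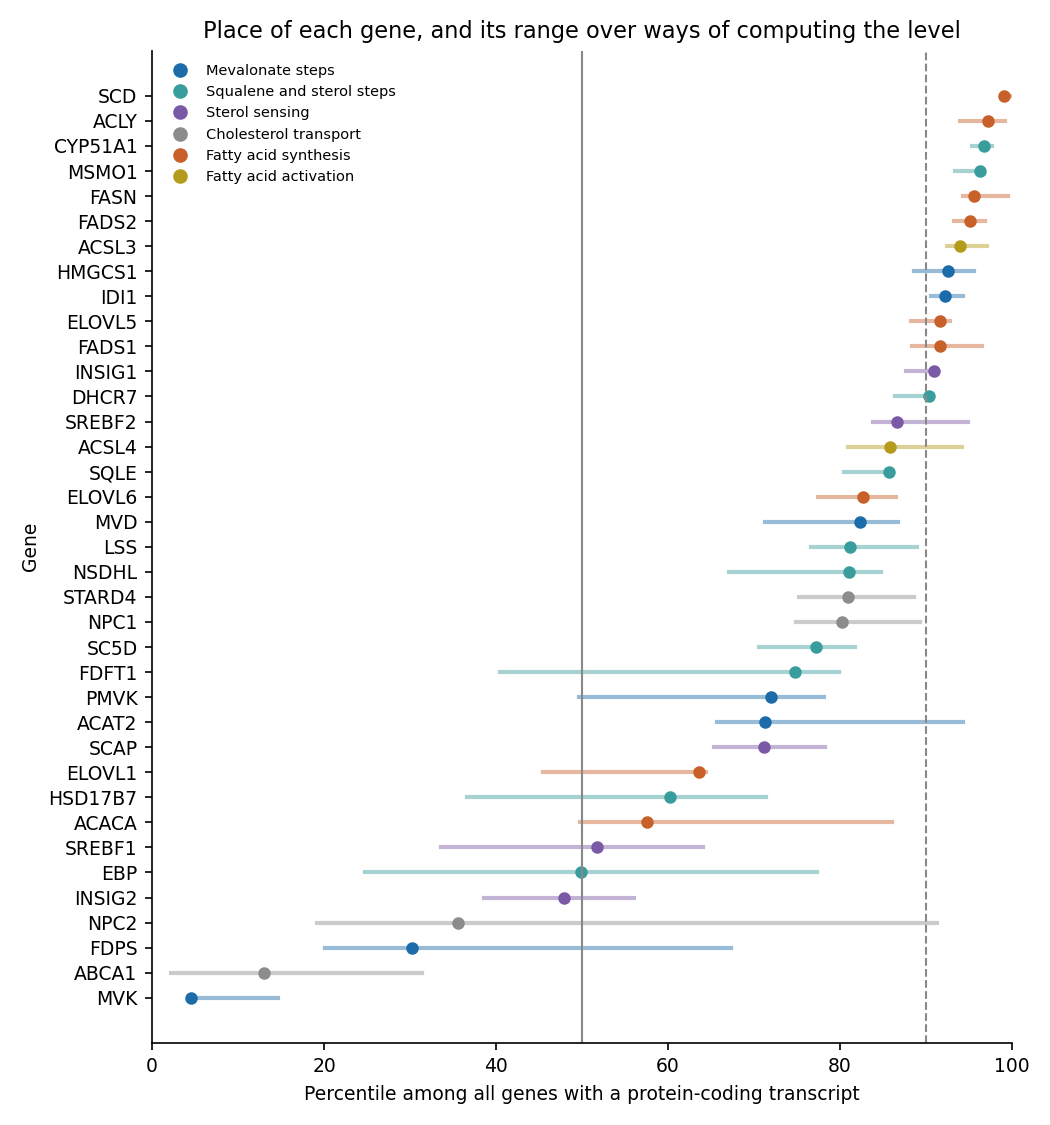
Percentile of each gene among all genes with a protein-coding transcript (points), with its range over the main and alternative ways of computing the level (bars). The solid line marks the middle gene and the dashed line the top 10%. SCD stays between 98.7 and 99.9, while NPC2 runs from 19.2 to 91.3. The bars of MVK, FDPS and EBP cover fewer settings, since a minimum mean of 50 leaves these genes out.

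Some of the highest genes kept their place however a level was computed, and the place of several other genes depended on it strongly. Such movement was not computed for the other genes of the table, and a percentile near the top has little room to rise. SCD, ACLY, CYP51A1, MSMO1, FASN, FADS2, ACSL3 and IDI1, 8 genes, lay at or above percentile 90 in every setting that listed them. Another 9 genes did so in some settings and not in others, among them HMGCS1, DHCR7, INSIG1, ELOVL5 and FADS1. The percentile moved by over 20 points in 10 of the 37 genes. It ran from 19.2 to 91.3 for NPC2, from 24.8 to 77.3 for EBP and from 20.1 to 67.4 for FDPS. Genes above the middle also moved this far, such as FDFT1 (40.5 to 79.9) and ACACA (49.7 to 86.1). The lowest gene, MVK, moved less, from 4.20 to 14.6. MVK, FDPS and EBP are not listed with a minimum mean of 50, so their ranges cover fewer settings.

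Beside their 98 protein-coding transcripts, the 37 genes had 69 listed transcripts of other types, which the annotation marks as retained intron (36), processed transcript (20) or nonsense-mediated decay (13). Counts were estimated over whole transcripts, and coding and other transcripts of a gene can cover the same bases. The split of reads between types is therefore an estimate and was not measured directly. Transcripts of these other types are not annotated to give the full protein. They held over 50% of the summed mean read count in 6 genes (16.2%, against 9.46% of all genes), and the transcript with the highest level per kb was not coding in 5 genes (13.5%, against 13.0% of all genes). The 5 were ACAT2, MVK, FDPS, EBP and NPC2, and HSD17B7 was the sixth with most of its reads outside coding transcripts.

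NPC2 was the clearest case. Its 583-base decay transcript NPC2-009 had a mean normalised count of 583 reads, or 1000 per kb, while its coding transcript NPC2-001 had 66.3 reads, or 64.1 per kb. NPC2-009 lies within the span of NPC2-001, so the split of reads between them is an estimate. By this estimate the non-coding share of NPC2 was 89.8%. NPC1 was 6.10-fold above NPC2 over coding transcripts and at 0.662 times NPC2 over all types. The order of NPC1 and NPC2 therefore turned with the transcript types that were counted.

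The same held in the mevalonate branch. ACAT2-003 and ACAT2-002, both processed transcripts, had means of 860 and 575 reads beside 826 for the coding ACAT2-001. The non-coding share of ACAT2 was 63.5%, also an estimate, since both lie within the span of ACAT2-001. FDPS-005, a retained intron transcript, had 166 reads, against 37.8 and 33.6 for the coding FDPS-001 and FDPS-002. MVK was low in every type, with 13.3 reads on its coding transcript MVK-202, 29.3 on MVK-005 and 15.2 on MVK-002. Of the sterol genes, EBP-002 had 248 reads against 39.6, 42.5 and 19.7 for its 3 coding transcripts, and HSD17B7-002 had 189 against 191 for HSD17B7-001. A later annotation, GENCODE release 44, lists EBP-002, HSD17B7-002, ACAT2-002 and ACAT2-003 with no coding sequence defined. It gives that label to every processed transcript of these genes, so the label is no separate evidence that they lack one.

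**Figure D3:**
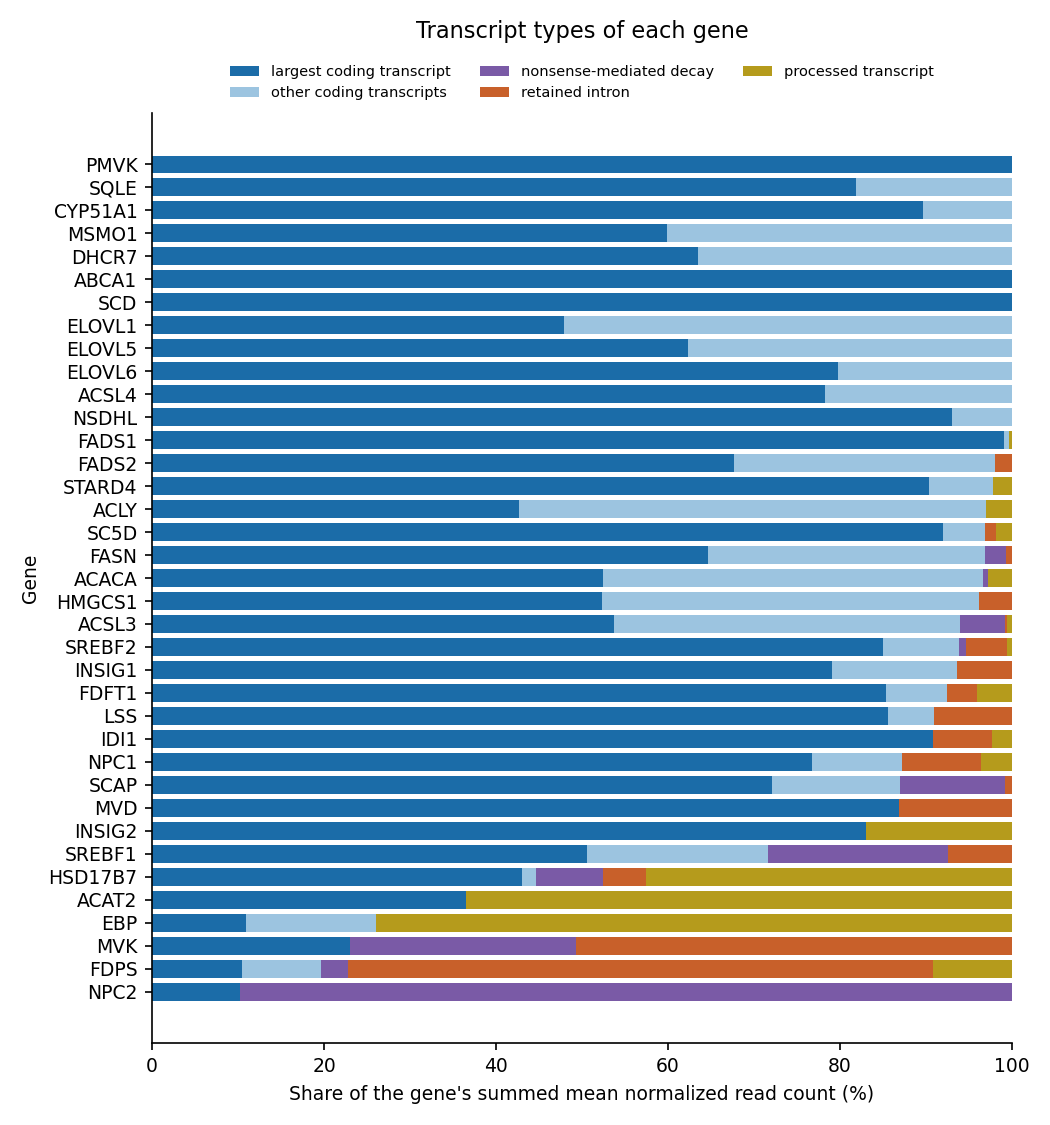
Share of each gene's summed mean read count in percent, by transcript. Shown are its coding transcript with the most reads, its other coding transcripts and its non-coding transcripts by type. Counts are estimates for transcripts that can overlap. Non-coding transcripts hold over 50% in NPC2, FDPS, MVK, EBP, ACAT2 and HSD17B7, and 0 in SCD, CYP51A1, MSMO1 and other genes that list coding transcripts alone.

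Within the coding transcripts, the leading one, with the highest level per kb, held a median of 79.6% of a gene's coding level. The median over all genes was 85.2%. A single coding transcript was listed for 9 of the 37 genes (24.3%, against 36.7% of all genes), and the leading transcript held at least 80% of the coding level in 18 genes (48.6%, against 55.4% of all genes). SCD and IDI1 had 1 coding transcript each. The leading share was 98.6% in FADS1 and 96.7% in FDFT1, but 43.5% in ACLY, 49.7% in ELOVL1 and 51.1% in MSMO1.

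For ACACA and SREBF1 the listed transcripts differ in where they start or in what they encode. The 3 coding transcripts of ACACA, on the minus strand of chromosome 17 in hg38, begin at bases 37359116 (ACACA-009), 37299767 (ACACA-002) and 37406836 (ACACA-001). They had mean normalised counts of 810, 375 and 309 reads in that order, estimated over whole transcripts that share most of their exons, so the use of each start was not measured. SREBF1-003 and SREBF1-002 begin 1 base apart on chromosome 17, at 17836987 and 17836986, and encode 1177 and 1147 codons. Their levels were 69.8 and 21.5 per kb.

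Several of the genes share genomic sequence with others. FADS1 and FADS2 lie head to head on chromosome 11, where the leading transcript of FADS1 begins at base 61817003 on the minus strand and that of FADS2 at 61816256 on the plus strand, and 12.3% of the exonic bases of FADS2 overlap exons of FADS1. Exons of genes on the other strand covered at least 10% of the exonic bases in 5 genes. These were HMGCS1 (45.8%), FDPS (38.4%, by RUSC1-AS1), ACAT2 (36.3%, by SOD2 and TCP1), FADS2 and LSS (10.6%). The use of strand in counting is not given in the sources used here, so reads of the overlapping genes cannot be told apart. Near copies were listed at low values, with 38.0 reads for the pseudogene HSD17B7P2 and 8.89 for SCDP1, and reads shared with them could be assigned to either gene.

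Promoter sequence was read because the SREBPs act there. RefSeq windows of 300 bases, from 250 bases before the annotated start to 50 after it (GRCh38.p14), were found for 35 of the 39 genes, with 50 windows in all since some genes have several starts. ACAT2, FASN, FDFT1 and SQLE had no window. The 4 promoters printed are those of SREBF2, which holds the full sterol regulatory element, of SCD, the highest gene, and of NSDHL and MVK, the single windows with the most CCAAT boxes. Each is written from 5′ to 3′ on the plus strand, with capitals for TCACNCCAC and for CCAAT or its reverse complement ATTGG. They span chr22:41832855-41833154, chr10:100346983-100347282, chrX:152830813-152831112 and chr12:109573544-109573843.
SREBF2: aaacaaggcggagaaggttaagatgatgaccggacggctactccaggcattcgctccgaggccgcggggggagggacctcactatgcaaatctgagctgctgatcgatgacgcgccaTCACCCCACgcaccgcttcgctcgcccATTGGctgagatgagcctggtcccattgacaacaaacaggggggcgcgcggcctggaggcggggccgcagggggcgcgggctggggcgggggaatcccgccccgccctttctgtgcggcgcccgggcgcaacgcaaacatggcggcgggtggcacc
SCD: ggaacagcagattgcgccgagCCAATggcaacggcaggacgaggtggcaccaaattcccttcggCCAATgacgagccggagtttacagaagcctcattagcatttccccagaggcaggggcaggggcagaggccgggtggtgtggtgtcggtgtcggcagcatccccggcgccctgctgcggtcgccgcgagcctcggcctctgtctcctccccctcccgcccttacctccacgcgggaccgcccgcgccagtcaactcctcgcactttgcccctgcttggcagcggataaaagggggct
NSDHL: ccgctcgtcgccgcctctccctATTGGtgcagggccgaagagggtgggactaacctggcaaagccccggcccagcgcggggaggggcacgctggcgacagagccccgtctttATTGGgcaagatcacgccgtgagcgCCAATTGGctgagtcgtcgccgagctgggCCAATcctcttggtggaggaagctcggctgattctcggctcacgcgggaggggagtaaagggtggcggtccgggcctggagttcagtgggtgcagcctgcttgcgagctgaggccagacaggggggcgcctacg
MVK: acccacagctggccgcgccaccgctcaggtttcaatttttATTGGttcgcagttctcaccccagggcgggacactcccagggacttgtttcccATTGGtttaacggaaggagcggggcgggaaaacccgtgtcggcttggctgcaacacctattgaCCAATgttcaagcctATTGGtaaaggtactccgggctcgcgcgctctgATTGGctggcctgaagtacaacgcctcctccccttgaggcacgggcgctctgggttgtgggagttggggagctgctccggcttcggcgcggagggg

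The sterol regulatory element TCACNCCAC, searched on both strands, matched in 2 of the 35 genes (5.71%, against 1.51% of 15843 protein-coding genes with a window). In SREBF2 it began 133 bases before the start on the coding strand, with a CCAAT box on the reverse strand 106 bases before the start. The other match was on the reverse strand of a window of ACSL1, 242 bases before that start. A looser search that allowed 1 mismatch matched 18 genes (51.4%, against 30.5% of protein-coding genes). A match is a string of letters and not a measured binding site.

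CCAAT, the box bound by NF-Y, is a shorter string and so matches more often, in these genes and over all protein-coding genes. It occurred on either strand in 25 of 35 genes (71.4%, against 42.1% of protein-coding genes), and by role in 5 of 6 mevalonate genes, 8 of 9 sterol genes, 6 of 8 fatty acid genes, 2 of 3 activation genes, 2 of 5 sensing genes and 2 of 4 transport genes. Of the 59 boxes, 40 were on the reverse strand and 50 began between 200 and 30 bases before the start, with a median of 117 before it. Strand and position were not computed for other promoters, so they are not shown to be particular to these genes. NSDHL and MVK held 5 boxes each in 1 window, IDI1 held 5 at different places over several windows, and MSMO1 held 4. Neighbouring windows of 1 gene can overlap, and a box on one strand can overlap a box on the other, as in NSDHL, so these boxes are not all separate. The number of boxes did not follow the level in these examples, since MVK, the lowest of the 37 genes, held 5 and SCD, the highest, held 2.

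The GC box GGGCGG, bound by SP1, occurred in 33 of 35 genes (94.3%, against 64.3%), and the E-box CACGTG, a palindrome, in 6 (17.1%, against 10.9%). These shares describe reference sequence, whatever the treatment, and were not tested.

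**Figure D4:**
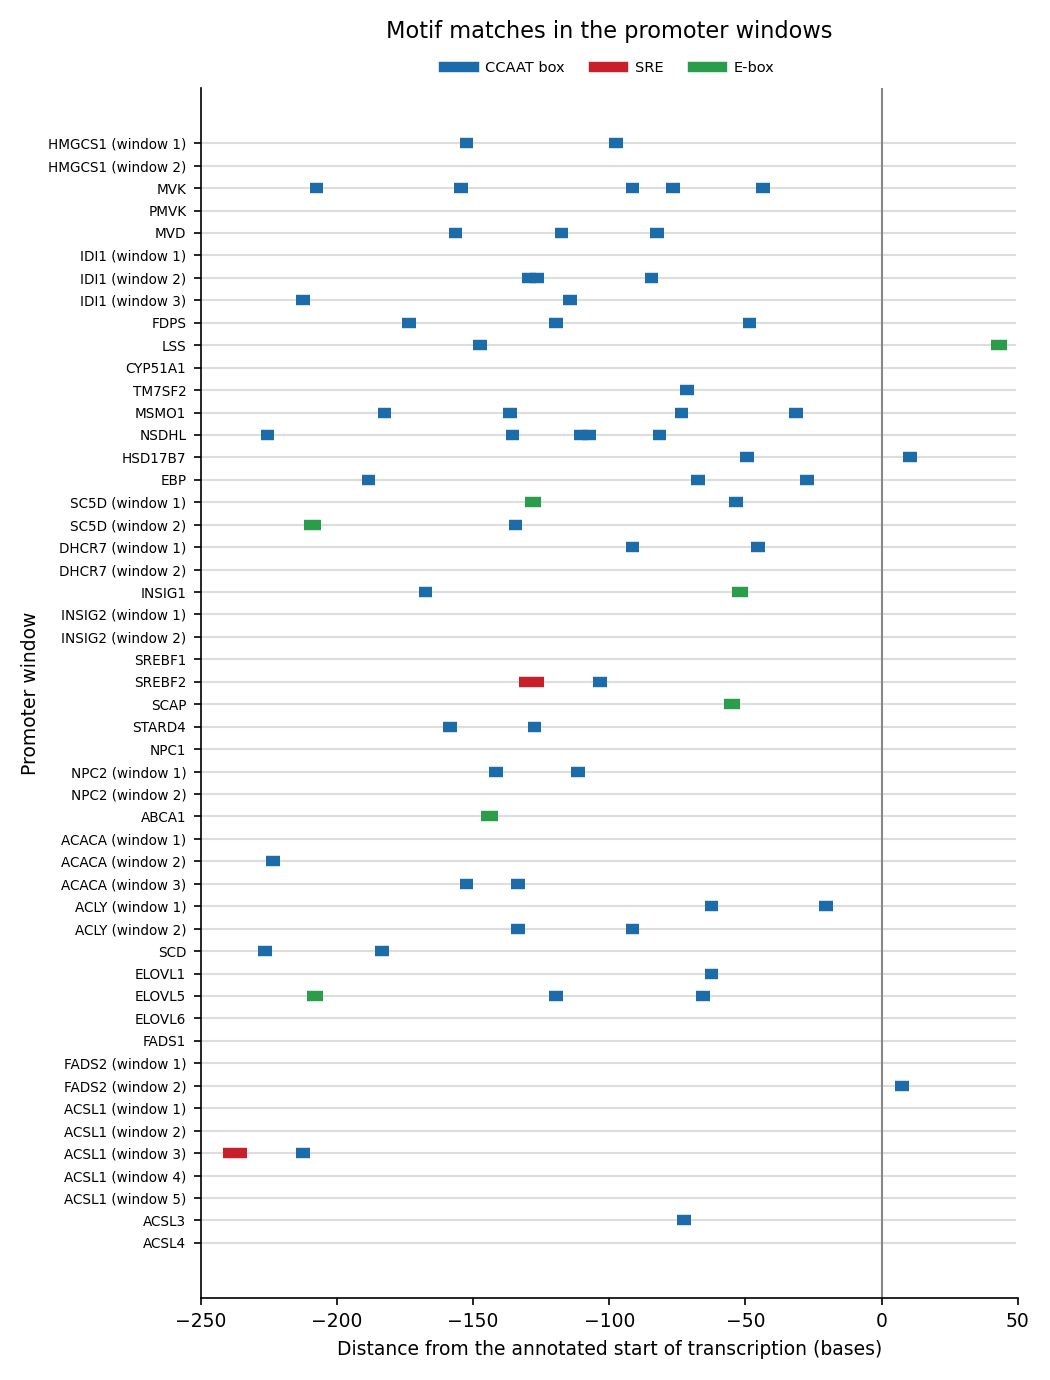
Positions of motif matches in the promoter windows, as distance in bases from the annotated start, with 1 row per window. Of 59 CCAAT boxes, 50 begin between 200 and 30 bases before the start, and the sterol regulatory element appears in windows of SREBF2 and ACSL1. Positions in other promoters were not computed.

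Of 38 further genes of lipid metabolism, 29 had a protein-coding transcript listed, with a median percentile of 77.3. Of these, 7 lay in the top 10% and 22 at or above the middle. Among the highest were HACD3, a dehydratase of fatty acid elongation, at 1201 per kb, and FABP5, a fatty acid carrier, at 1175 per kb. The lowest were ACSS2, which makes acetyl-CoA from acetate, at 7.60 per kb, ACACB at 25.3 per kb and the elongase ELOVL3 at 37.6 per kb.

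The cell line label was checked against markers. All 8 genes typical of basal B breast lines were listed and 6 lay in the top 10%, led by ANXA1 at 6328 per kb and VIM at 3786 per kb, while ZEB1 was at 46.7 per kb. Of 5 genes that this line is known to express weakly or not at all, ESR1, PGR and CDH1 had no coding transcript listed, and ERBB2 and EPCAM were at 24.1 and 43.3 per kb. Markers of leukocytes (0 of 4), adipocytes (0 of 2) and hepatocytes (0 of 2) were not listed, those of endothelial cells reached 4.08 per kb (2 of 3 listed), and those of fibroblasts 29.7 per kb (3 of 5 listed). The lowest mean listed for any transcript was 7.34 reads, so a gene that was not listed need not be absent from the cells.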

How the data were processed

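MDA-MB-231 libraries (DMSO and 10 µM KH-3, 2 each) were made with a TruSeq mRNA kit. Per the labels and the study's methods, the authors mapped reads to the transcripts of GENCODE release 24 by STAR (hg38 is the build in the submitters' processing notes), estimated transcript counts by eXpress and compared groups by DESeq2, versions not given in the sources used here. The deposited signal used here is the mean normalized read count of each transcript, averaged by the authors. Which libraries enter that mean is not stated, and a lower KH-3 dose in the study's methods could be among them. The 3 other numeric columns hold the authors' own comparison (log2 fold change, p-value and q-value) and were not used. The planned comparison of KH-3 with DMSO was not run, since it needs a value for each library.

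Each mean was divided by transcript length in kb and summed over a gene's protein-coding transcripts, and genes were ranked among 12120. The scripts were tested on simulated data. Positions came from GENCODE release 44, in which 162 of 167 transcripts were found by identifier (36 of 37 leading ones, 12 of equal length). Promoter windows came from RefSeq. Protein sequences were not analysed here. Every one of the genes was named, by role, with the 3 highest and 3 lowest of a further list, of which 1 is not reported here. The genes and lists were chosen with earlier results of these data known. Python 3.11.15, numpy 2.4.6, pandas 2.3.3 and matplotlib 3.10.9 were used.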

Additional observations from a re-analysis of the deposited data

How the results depend on the processing

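No paired analysis was possible because the table holds 1 mean per transcript and no value for a single library. For the same reason the planned fits that leave out a library, change the pseudocount or filter before a test of KH-3 against DMSO were not run. The count of genes in the top 10% was 13, and 10 with the leading transcript alone, 11 with all transcript types, 14 without division by length, 12 with 200 bases taken off the length, and 9 with transcripts of a mean of at least 50, which lists 34 of the genes. The count at or above the middle was 31, and between 27 and 34 under these settings. The count of genes whose leading transcript held at least 80% was 18, and between 12 and 22. The sterol regulatory element matched 2 genes, 18 with 1 mismatch allowed and 1 on the coding strand alone, as a looser and a narrower search give by construction. The percentile of a single gene moved by over 20 points in 10 of 37 genes, and the same share over all genes was not computed. The minimum of 50 leaves 9784 genes to rank among, which lowers percentiles by construction. The depth of the libraries is unknown, so how far it limits the low levels of MVK and ABCA1 was not tested.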
